A study of Gallus gallus with 24 samples.

Results

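Of 38439 probe sets measured in chick embryonic ventricles, 6 held a steady level from embryonic day 4 (E4) to E6 and stood at least 2-fold higher at both E8 and E10, alike in the left and right ventricle. They are probe sets for MEOX2 (Gga.90.1.S1_at), AQP1 (Gga.2680.1.S1_at), ABCB1 (Gga.4109.1.S1_at), C10orf71 (Gga.10149.1.S1_at) and GRIA3 (Gga.13196.1.S1_at), and 1 probe set, Gga.14031.1.S1_at, that the platform annotation used here does not pair with a gene. They were chosen by measured values, as means of the 2 arrays of a pool on the log2 scale. The highest pool mean had to reach 6, the E4, E5 and E6 stage means had to lie within 0.5 of each other, and the E8 and E10 means had each to be at least 1 above the mean of E4 to E6. The left minus right difference in normal hearts had to be within 0.7 at E6, E8 and E10, and banded minus normal within 0.7 at E5. The pattern of these 6 probe sets in normal hearts, and their lack of a wide banding difference, are therefore a description and were not tested.

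The study measured ventricular tissue on one-colour oligonucleotide arrays. The 12 pools each came from 6 to 12 specimens and were hybridised to 2 arrays, so that each condition had 1 pool and the 24 arrays are technical duplicates. In ligated embryos the left atrial appendage was partly tied off at E4, an operation that narrows the inflow to the left side, and the left and right ventricles were collected apart at E8. In banded embryos the conotruncus, the outflow end of the heart, was tied at E4, and the ventricles were collected together at E5. Normal ventricles were collected together at E4, E5 and E6 and apart at E6, E8 and E10. The labels name no sham operation, so the effect of a ligature or band and that of operating cannot be told apart, and they do not say whether a left and a right pool came from the same hearts. The SD given for a pool is that between its 2 arrays and does not hold the variation between embryos. In a pool of whole tissue, fewer cells of a type and less RNA per cell cannot be told apart.

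The myocardium of the chick ventricle is first a thin wall fed from the lumen. As the compact wall thickens, endothelial cells form a coronary network, which later joins the aorta. MEOX2 is a homeobox transcription factor of mesoderm and of vascular endothelium, and in mice, with TCF15, it is known to drive fatty acid uptake in heart capillaries. AQP1 is a water channel of capillary endothelium and red cells. ABCB1, or P-glycoprotein, is an efflux pump known from the endothelium of the blood-brain barrier. C10orf71, also called CEFIP, is known in mouse and human as a striated muscle protein that binds FHL2 at the Z disc. GRIA3 is a subunit of the AMPA type of glutamate receptor, best known from neurons.

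All 6 cardiomyocyte markers were kept by the signal filter, and TNNT2, cardiac troponin T, lay between 14.95 and 15.13 in all 12 pools. The filter kept 20335 probe sets whose highest pool mean, ligated and banded pools included, reached the 50th percentile of all values, 4.09. All 6 late-rising probe sets passed it, but GRIA3 and ABCB1 had a mean of E4 to E6 below that level, so their fold changes rest on dim early values. The smooth muscle actin ACTA2, the leukocyte marker PTPRC and the glial marker SOX10 stayed below the filter level in every pool. Array medians lay between 4.02 and 4.14.

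Few probe sets had a late start by this rule. Before the steadiness criterion, 135 probe sets met the other criteria and were at least 1 higher at E8 and E10, and 129 of these had a wider range over E4 to E6 than the 6 had. In those 129 the median E5 minus E4 difference was 1.36, and 94 were at least 2-fold higher at E5 than at E4 with arrays that did not overlap, as were 0 of the 6 and 2.87% of all kept probe sets; the limit on the early range fixes that 0. Among 11111 probe sets that were steady from E4 to E6, 6 were at least 1 higher at both later stages and 16 were at least 1 lower. The steadiest were MEOX2 and AQP1, whose stage means ranged over 0.13 each. GRIA3 was the nearest to the limit at 0.498, followed by C10orf71 at 0.436. Just outside it lay ceruloplasmin (CP) at 0.625, the endothelial clotting factor VWF at 0.639 and SDR42E2 at 0.679. On the rise, C10orf71 was nearest to the limit at 1.03 and the unannotated probe set followed at 1.08. Just below it were Gga.14774.1.S1_at, also without a gene, at 0.975, the matrix protease ADAMTS9 at 0.965 and a probe set of the endothelial adhesion molecule PECAM1 at 0.962. On the highest pool mean, ABCB1 was nearest at 6.14, and FAM129A at 5.81, Gga.2879.1.S1_at, which has no gene, at 5.59 and the transcription factor EBF2 at 5.50 fell short.

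**Figure D1:**
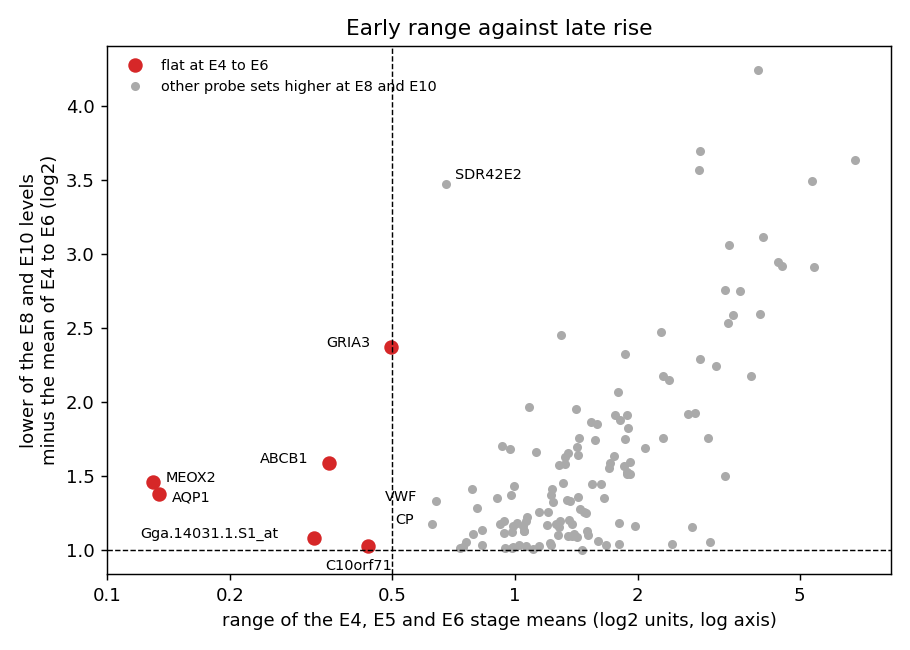
Each point is 1 of the 135 probe sets that were at least 1 higher at E8 and at E10 and met the criteria on level, side and banding; the x axis is the range of the E4, E5 and E6 stage means (log2 units, log axis) and the y axis the lower of the E8 and E10 levels minus the mean of E4 to E6 (log2). Dashed lines mark the limits of 0.5 and 1; the 6 red points lie left of the first, GRIA3 at 0.498 on its edge.

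MEOX2 stood at 8.32 at E4, 8.45 at E5, and 8.34, 8.35 and 8.66 in the E6 pools of both, left and right ventricles. On the E8 arrays it reached 9.86 and 9.92 in the left and 9.97 and 9.74 in the right ventricle, and at E10 10.84 and 10.74 in the left and 10.68 and 10.75 in the right. Every E8 array lay above every earlier array, and every E10 array above every E8 array. The mean of E8 and E10 was 1.90 above the mean of E4 to E6, or 3.74-fold.

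AQP1 stood at 10.44 at E4, 10.39 at E5 and between 10.22 and 10.44 in the E6 pools. It read 11.72 and 11.67 on the left and 11.79 and 11.85 on the right E8 arrays, then 12.53 and 12.61 on the left and 12.43 and 12.34 on the right E10 arrays. As with MEOX2, the early, E8 and E10 arrays formed 3 separate ranges. The late mean was 1.74 higher than the early mean, or 3.34-fold. AQP1 also had the widest banding difference of the 6, with 11.01 and 11.08 on the banded and 10.32 and 10.47 on the normal E5 arrays. That difference of 0.65 lay just under the limit of 0.7 set on it, and the other 5 were between -0.15 and 0.13.

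ABCB1 was dim in most early pools, at 2.29 at E4, 2.28 at E5, and 2.33 and 2.31 in the left and right E6 pools. The E6 pool of both ventricles differed from these, with 3.21 and 3.30 on its arrays. At E8 the arrays read 3.81 and 4.39 in the left and 3.60 and 4.17 in the right ventricle, and at E10 6.26 and 5.80 in the left and 6.25 and 6.03 in the right. E10 minus E8 was 2.09. The early mean and the E8 mean of 3.99 both lie below the filter level of 4.09, so the late rise of 2.64 and the step up to E8 rest on dim values.

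C10orf71 stood at 8.07 at E4, 8.51 at E5, and 8.53, 8.36 and 7.99 in the E6 pools of both, left and right ventricles. It read 9.23 and 9.35 on the left and 9.28 and 9.41 on the right E8 arrays, and 9.79 and 9.82 on the left and 10.28 and 10.20 on the right E10 arrays. Its late rise of 1.38, or 2.60-fold, was the smallest of the 6, and its E4 to E5 step of 0.44 was nearly as wide as allowed. The left and right ventricle parted at E10, with the left 0.44 lower.

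GRIA3 stood at 3.44 ± 0.50 at E4, 3.94 ± 0.16 at E5, and 3.94 ± 0.07, 3.33 ± 0.58 and 3.86 ± 0.11 in the E6 pools of both, left and right ventricles (SD of 2 arrays). It read 5.87 and 5.89 on the left and 6.35 and 6.15 on the right E8 arrays, and 7.20 and 7.10 on the left and 6.91 and 6.69 on the right E10 arrays. No early array overlapped a late one, but the arrays of the E4 and left E6 pools disagreed by more than those of any normal E8 or E10 pool. The late rise was 2.83, from an early mean of 3.70 that lies under the filter level. GRIA3 left the selection when the arrays were quantile normalized or centred on their medians, and when array 1 of each pool was left out. Of the 2 defining nerve and glia markers on the array, the filter kept STMN2 alone. The 2 summed to 3.30 in the left E10 pool and 7.99 in the right one. In the normal E4 to E6 pools they summed to 3.30 to 5.95. GRIA3 was 0.35 higher on the left at E10. STMN2 stood at 3.34 at E4 and 5.30 at E10, whereas NEFM stood at 11.45 and 5.75. In the wider neural crest, nerve and glia list 0 of 12 kept genes rose in the stage fit, against 4.9% of all kept probe sets. In that list 3 fell, NEFM among them, against 5.65%. The part of nerve cells in the level of GRIA3 was not tested.

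The unannotated probe set, Gga.14031.1.S1_at, stood at 5.52 at E4, 5.81 at E5, and 6.53, 5.62 and 5.37 in the E6 pools of both, left and right ventricles. It read 6.96 and 6.82 on the left and 6.44 and 7.0 on the right E8 arrays, and 7.88 and 7.75 on the left and 7.47 and 7.36 on the right E10 arrays. It was the only one of the 6 whose early and late arrays overlapped: the E6 pool of both ventricles reached 6.56 on one array and the right E8 pool 6.44 on another. At this probe set and at ABCB1 the E6 pool of both ventricles exceeded the mean of the single-ventricle E6 pools by 1.04 and 0.93, against -0.16 to 0.36 at the other 4. Whether the kind of pool sets this difference was not tested.

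**Figure D2:**
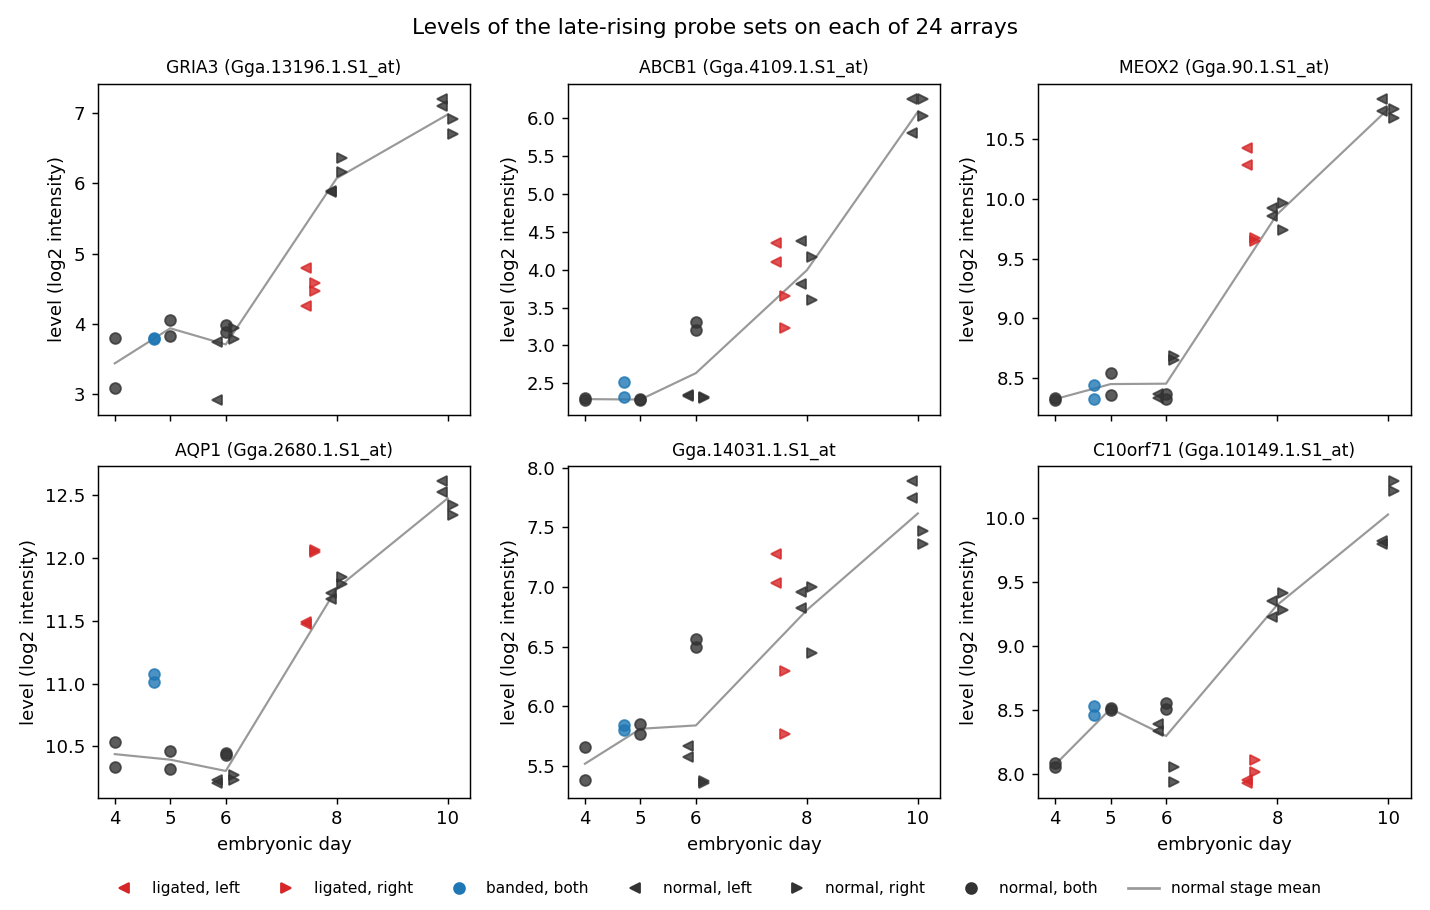
Level (log2 intensity) of each of the 6 probe sets by embryonic day, 1 point per array for 24 arrays; red marks ligated, blue banded and black normal pools, the grey line joins the normal stage means, and ligated and banded points are drawn slightly left of their day. The ligated arrays of C10orf71 lie at the level of E4 to E6 (7.93 to 8.11), and those of GRIA3 lie between the early and the normal E8 arrays.

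All 6 probe sets were higher at E10 than at E8 on both sides. E10 minus E8 lay between 0.52 and 1.93 in left ventricles and between 0.55 and 2.25 in right ventricles, and no E10 array overlapped an E8 array of its side. The step was at least 2-fold at GRIA3 and ABCB1 in the left ventricle, where 1.23% of all kept probe sets were higher by this rule, and at ABCB1 in the right, where 0.969% were. The rule used the E8 and E10 means to choose the 6, so these counts are a description from which nothing is read. In the limma fit of a straight line through 5 stage means, all 6 rising slopes passed an adjusted p of 0.05, as did 4.9% of kept probe sets, but the stage means had chosen the 6 and nothing follows from that count.

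After left atrial ligation the 6 probe sets fell into unlike sets. C10orf71 and GRIA3 were at least 2-fold lower in ligated than in normal ventricles on both sides, and the other 4 stayed within 2-fold on both sides. The ligated pools entered the choice of members only through the highest pool mean, and none was the highest of its probe set. The normal E8 pools were chosen to be high, however, so a ligated minus normal difference may lean towards negative values, and the same normal pools stand in both the rule and the comparison. By the rule of at least 2-fold with arrays that did not overlap, 2 of 6 were lower in the left ventricle against 1.66% of kept probe sets, and 2 of 6 in the right against 2.19%. The 2 were lower on both sides, as were 0.988% of kept probe sets and 3 of the 129 others that were high late, which were also chosen to be high at E8. None of the 6 was at least 2-fold higher, against 2.54% and 1.98% of kept probe sets. The 2-fold rule has no p-value, since each arm held 1 pool.

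C10orf71 read 7.93 and 7.95 on the ligated and 9.23 and 9.35 on the normal arrays of the left ventricle, a difference of -1.35. In the right ventricle it read 8.11 and 8.02 on the ligated and 9.28 and 9.41 on the normal arrays, a difference of -1.28. The ligated E8 pools thus lay within or just below the range of the normal E4 to E6 pools, 7.99 to 8.53, and the left ligated pool was the lowest of all 12. These are 2.55-fold and 2.43-fold lower levels. One limma model of the 12 pools, with a level for each age and operation and a term for side, gave -1.32 ± 0.22 (SE, Benjamini-Hochberg adjusted p = 0.210). The level was lower in both ventricles but the estimate did not pass the threshold, with an adjusted p between 0.0707 and 0.243 in the alternatives.

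GRIA3 read 4.79 and 4.26 on the ligated and 5.87 and 5.89 on the normal arrays of the left ventricle, a difference of -1.36. In the right ventricle it read 4.47 and 4.59 on the ligated and 6.35 and 6.15 on the normal arrays, a difference of -1.73. The ligated pools stayed above the early normal pools, whose highest array was 4.05. The fit gave -1.54 ± 0.24 (SE, adjusted p = 0.194 in limma, range over the alternatives 0.0739 to 0.255), again lower in both ventricles and short of the threshold. This fit called 0 of the 6, against 0.00984% of all kept probe sets. At an unadjusted p under 0.05 it took in 2 of the 6, C10orf71 and GRIA3, against 13.7% of all kept. Single markers of other cells also differed after ligation. MYH11, a smooth muscle myosin, was 1.99 and 1.87 higher in the ligated left and right ventricle. On each side it was the 1 of 13 kept smooth muscle and pericyte genes at least 2-fold higher, against 2.54% and 1.98% of all kept. The medians of that list were 0.26 and -0.04. STMN2 was 1.99 and 1.71 higher, from normal left and right levels of 2.26 and 3.91, below the filter level. It was among 3 of 12 kept neural crest, nerve and glia genes at least 2-fold higher on the left, against 2.54% of all kept. On the right it was the 1 that was higher, against 1.98%. At least 2-fold lower in that list were 1 gene on the left, TUBB3, and 1 on the right, GFRA1, against 1.66% and 2.19%. The medians of that list were 0.37 and 0.08. The summed smooth muscle markers lay at 10.69 and 10.91 in the ligated left and right pools, against 10.04 and 10.72 in the normal E8 left and right pools. In the list of macrophage, lymphocyte and complement genes, 8 of 30 kept were at least 2-fold higher in the ligated left and 7 of 30 in the ligated right ventricle, against 2.54% and 1.98% of all kept probe sets, with median differences of 0.57 and 0.24. Among them MRC1, a macrophage mannose receptor, differed by 2.35 and 0.44, and C1QB, a complement subunit, by 1.65 and 0.50. CD3E, a T cell receptor subunit, differed by 1.84 and 1.77, from normal left and right levels of 2.37 and 3.98, below the filter level. The filter took in ligated pools, so a pool called higher may also be the one that kept a gene. Among the 7 was AVD, at 7.42 in the ligated right pool, against normal stage means between 2.27 and 2.31. Nothing is therefore read from the counts of 8 and 7. Of the defining markers, SPI1 differed by 1.13 and 0.20, CSF1R by 0.03 and -0.35 and CD74 by 0.24 and -0.02. The summed macrophage and leukocyte markers lay at 11.12 and 11.11 in the ligated left and right pools, against 10.89 and 11.18 in the normal E8 pools. The part of these cells in the lower levels of C10orf71 and GRIA3 was not tested.

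The remaining 4 stayed within 2-fold, with no common direction. AQP1 read 11.49 and 11.47 on the ligated and 11.72 and 11.67 on the normal left arrays, and 12.07 and 12.05 on the ligated and 11.79 and 11.85 on the normal right arrays, so that it was 0.22 lower on the left and 0.24 higher on the right. MEOX2 read 10.28 and 10.42 on the ligated and 9.86 and 9.92 on the normal left arrays, and 9.65 and 9.67 on the ligated and 9.97 and 9.74 on the normal right arrays. Both were far above every early array in each ligated pool. At ABCB1 the ligated and normal arrays overlapped on both sides, with differences of 0.13 and -0.44. The unannotated probe set was 0.26 higher on the left and 0.69 lower on the right, where its ligated arrays read 6.30 and 5.77 against 6.44 and 7.0 on the normal ones. In limma the ligation estimates of these 4 lay between -0.21 ± 0.41 and 0.14 ± 0.23 (SE), with adjusted p between 0.829 and 0.990, which does not show that they were unaltered.

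**Figure D3:**
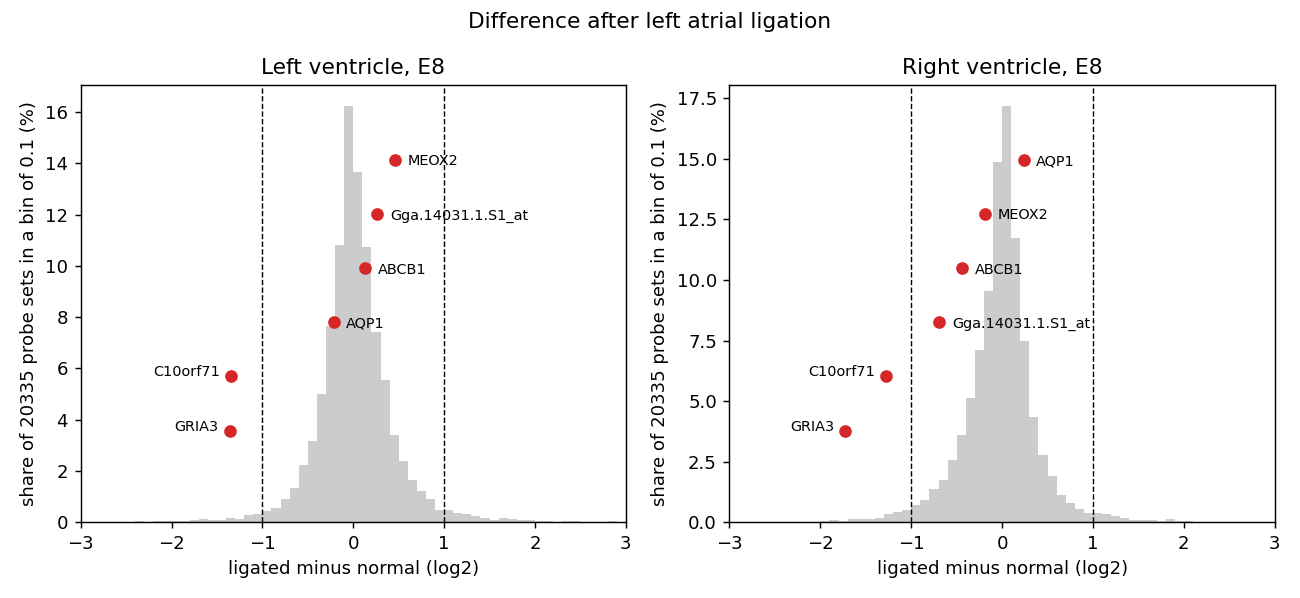
Ligated minus normal level at E8 (log2, x axis) in the left and the right ventricle; grey bars give the share of the 20335 kept probe sets in bins of 0.1 (y axis, %), red points the 6 probe sets, whose height carries no value, and dashed lines the 2-fold limits. C10orf71 and GRIA3 lie beyond -1 in both panels and the other 4 within the limits.

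Over the 6 together, ligated minus normal had a median of -0.04 on the left and -0.57 on the right, against -0.13 on either side over the 129 others that were high late and 0.00 on either side over all kept probe sets. The left median changed sign between the arrays, at 0.04 without array 2 of each pool and -0.24 without array 1. The right median was -0.23 without array 2 and -1.09 without array 1.

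The ventricles of ligated hearts were compared with each other in pools that entered none of the differences of the rule. The unannotated probe set was at least 2-fold higher in the ligated left than in the ligated right ventricle, by 1.12, as were 1.07% of kept probe sets. Without array 2 of each pool it did not reach 2-fold. None of the 6 was at least 2-fold lower there, as were 1% of kept probe sets. ABCB1 was 0.78 and MEOX2 0.69 higher in the ligated left ventricle, and AQP1 was 0.58 lower there, all with arrays that did not overlap. The share of all kept probe sets with differences below 2-fold and no overlap was not computed, so nothing is read from these. C10orf71 differed by -0.12 and GRIA3 by -0.01. The same left minus right differences in normal E8 hearts had been held within 0.7, and lay between -0.37 and 0.21. The limma term for side by ligation, which tests the difference in response, was 0.76 ± 0.25 at MEOX2 and -0.59 ± 0.23 at AQP1 (SE, adjusted p = 1 for both, and 0.994 to 1 in the alternatives). It passed at 0 of the 6 probe sets and at 0.00984% of those kept; at an unadjusted p under 0.05 it took in 1 of the 6, MEOX2, and 1.38% of those kept.

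GRIA3, ABCB1 and C10orf71 had other probe sets, which the rule did not choose. The second C10orf71 probe set, GgaAffx.21133.1.S1_at, stood at 6.32 at E4, 6.51 at E6, 7.26 at E8 and 8.29 at E10. It met the limits on early range and highest pool mean but missed that on the E8 rise, at 0.83. It was not chosen with a rise of at least 0.8 either, so it also missed the criterion on side or that on banding. Its ligated level was 6.20 against a normal 7.19 on the left, and 6.54 against a normal 7.33 on the right, differences of -0.99 and -0.79 (limma estimate -0.89 ± 0.27, adjusted p = 0.284). The second ABCB1 probe set stood at 2.26, 2.28 and 2.43 at E4, E5 and E6, 3.02 at E8 and 5.45 at E10, below the filter level up to E8. Its ligated minus normal difference was 0.87 on the left and -0.17 on the right, against 0.13 and -0.44 at the chosen probe set. GRIA3 was different. Its probe set Gga.3321.1.S1_s_at stood at 2.57 at E4 and already at 6.62 at E5, with 5.58 at E6, 8.11 at E8 and 8.78 at E10, and its remaining probe set, GgaAffx.20980.1.S1_at, was 1.04 higher at E5 than at E4. Neither was lower by 2-fold after ligation, and at Gga.3321.1.S1_s_at the ligated level was 8.21 against a normal 7.98 on the left and 7.98 against a normal 8.24 on the right. GgaAffx.20980.1.S1_at was dim, at 2.06 at E4, 3.11 at E5 and 3.64 at E8, with a highest pool mean of 4.80. Its ligated and normal E8 pools all lay below the filter level. The late start and the difference after ligation of GRIA3 therefore hold for 1 of its 3 probe sets. MEOX2 and AQP1 had 1 probe set each.

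**Figure D4:**
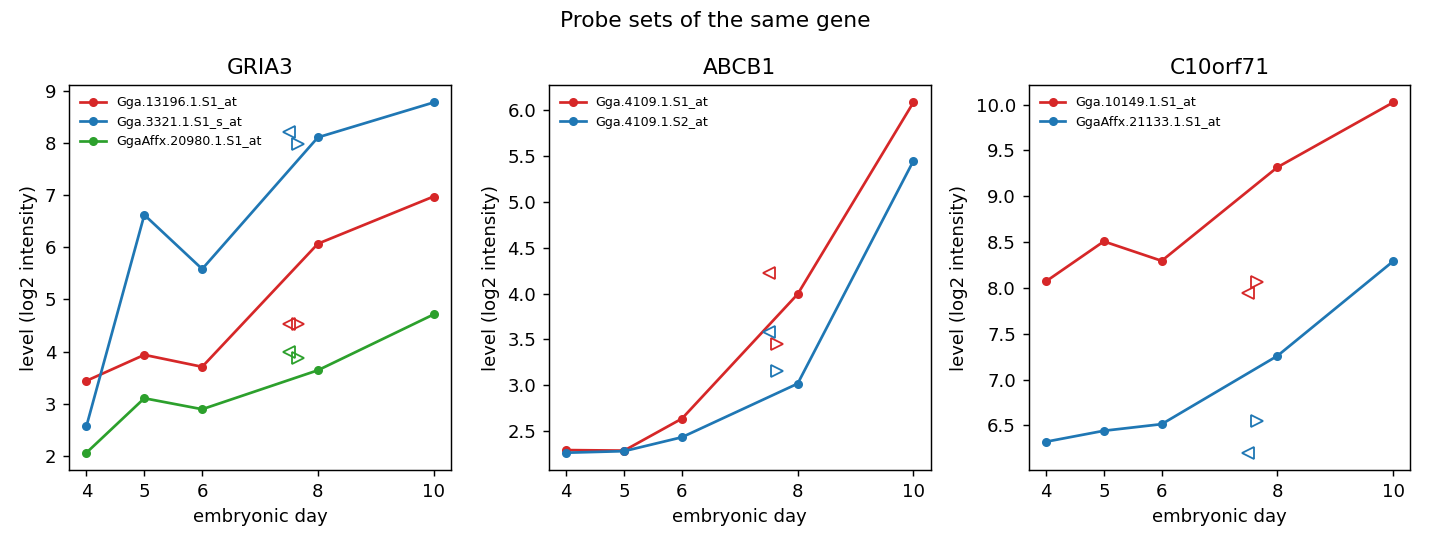
Stage means (log2 intensity, lines) of all probe sets of GRIA3, ABCB1 and C10orf71 by embryonic day, with open triangles for the ligated left and right pools at E8, drawn left of their day. The second probe set of ABCB1 and that of C10orf71 are also highest at E10, whereas the blue GRIA3 line is already higher at E5 than at E4, and its ligated values lie at its normal E8 level.

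Across the 12 pools the 6 profiles correlated with each other at Pearson r between 0.64, for MEOX2 with C10orf71, and 0.95, for ABCB1 with the unannotated probe set. These pools share the age ordering that chose the probe sets, so the values are a description. By Pearson r over the same 12 pools, a measure chosen after the values were seen, the named genes most like MEOX2 were SDR42E2, ADAMTS9, DOCK9 and FABP5, each at 0.97 (Spearman rho 0.80 to 0.91). FABP5, a fatty acid binding protein, was also among those most like AQP1, at 0.96, beside EPB41L2, MUSTN1 and SDC2. Most like C10orf71 were ANKRD50 and CAMTA1, each at 0.98, then ADCY6, an adenylate cyclase, MYO19, and DSG2, a desmosomal cadherin, each at 0.97. ABCB1 was most like ING5 at 0.98, and GRIA3 most like MAMDC2 and BEND4, each at 0.96.

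AQP1 belongs to a list of coronary endothelium and blood vessel genes, of which 32 of 39 were kept at 1 probe set per gene. In the stage fit 8 of these 32 rose, AQP1 included, and 2 fell, against 4.9% of all kept probe sets that rose and 5.65% that fell. The rule had chosen AQP1 by these stage means, so its own rise was fixed in advance. At an unadjusted p under 0.05 in limma, 4 fell. PECAM1 rose by 0.25 ± 0.03 per day (SE, limma adjusted p = 0.017) and VWF by 0.39 ± 0.05 (adjusted p = 0.018), and SOX18, CLDN5, CAV2, PDGFB and RGS5 rose as well. TEK and ANGPT1, a receptor and its ligand in vessel maturation, fell. After ligation none of the 32 was at least 2-fold lower on either side, against 1.66% of all kept probe sets on the left and 2.19% on the right. In the right ventricle 1, the capillary carbonic anhydrase CA4, was at least 2-fold higher, against 1.98% of all kept. The summed level of the 5 defining endothelial markers, PECAM1, CDH5, KDR, TEK and VWF, lay between 13.99 and 14.29 in the normal E8 and E10 pools, against 13.74 to 13.94 in the normal E4 to E6 pools (log2 of the sum). It lay at 13.84 and 14.05 in the ligated left and right pools, against 13.99 and 14.29 in the normal E8 left and right pools. None of the 5 was below the filter level. Their courses were unlike. KDR stood at 9.15 at E4 and 8.29 at E10, and TEK at 11.54 and 10.03, whereas PECAM1, CDH5 and VWF were higher at E10. The part of endothelial content in the levels of AQP1, MEOX2 and ABCB1 was not tested. AQP1 is also carried by red cells. The erythroid markers HBAD and HBE summed to 15.54 to 16.10 in the normal E8 and E10 pools, against 15.99 to 16.31 in the normal E4 to E6 pools. Their courses were unlike: HBE stood at 14.83 at E4 and 12.90 at E10, and HBAD at 15.21 and 15.29. Of 15 kept genes of the blood cell and erythroid list, 0 rose in the stage fit, against 4.9% of all kept probe sets. In that list 2, HBZ and GFI1B, fell, against 5.65% (limma, and 5 fell at an unadjusted p under 0.05). Some red cell membrane genes were higher at E10 than at E4 without passing the test. RHAG stood at 2.16 at E4, 9.01 at E5, 8.02 at E6, 10.04 at E8 and 10.15 at E10. ANK1 stood at 10.30, 11.33, 10.80, 11.63 and 11.64 at the same stages. Both were higher at E5 than at E4, lower at E6 and higher again at E8. The part of red cells in the level of AQP1 was not tested.

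Fatty acid uptake, the process to which MEOX2 is tied in mouse heart capillaries, was followed through a list of which 32 genes were kept. That list also holds genes of fatty acid oxidation, so its counts do not stand for uptake alone. In the stage fit 11 of the 32 rose, against 4.9% of all kept probe sets, and 0 fell, against 5.65% (limma; 1 fell at an unadjusted p under 0.05). The scavenger receptor and fatty acid carrier CD36 stood at 5.99 at E4, 9.13 at E5, 9.31 at E6, 11.43 at E8 and 12.23 at E10 (0.94 ± 0.16 per day, SE, limma adjusted p = 0.033). FABP5 stood at 5.85, 6.86, 6.99, 10.73 and 12.16 at the same stages (1.12 ± 0.10 per day, adjusted p = 0.013). Its widest step lay between E6 and E8, and that of CD36 between E4 and E5. Lipoprotein lipase, LPL, rose by 0.24 ± 0.04 per day (adjusted p = 0.025). The other risers were CPT1A, ACADS, HADHB, DECR1, PDK3, PPARGC1A, PLIN5 and OXCT1. FABP7 stood at 11.39 at E4 and 10.60 at E10 (limma adjusted p = 0.114). The transporter SLC27A4 stood at 10.96 and 10.86 (adjusted p = 0.751). FABP3 rose by 0.13 ± 0.03 per day without passing (adjusted p = 0.068). The named risers therefore do not stand for a rise of all uptake genes. After ligation 0 of the 32 were at least 2-fold lower on either side, against 1.66% of all kept probe sets on the left and 2.19% on the right. On each side 1 of the 32 was at least 2-fold higher, against 2.54% of all kept on the left and 1.98% on the right. On both sides it was ANGPTL4, an inhibitor of lipoprotein lipase, by 1.63 and 1.13. ANGPTL4 read 4.15 ligated against 2.52 normal on the left and 3.95 against 2.81 on the right, all dim values. Its normal stage means lay between 2.12 and 2.67, and of these E8 pools only the ligated left one lay above the filter level. The filter took in ligated pools, so the pool called higher may also be the one that kept ANGPTL4. Nothing is read from this call. The median differences were -0.11 on the left and -0.07 on the right. CPT1A, the enzyme that commits fatty acids to mitochondrial oxidation, differed by -0.55 and -0.78, and LPL, CD36 and FABP5 by -0.22 to 0.08.

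Of the sarcomere and Z disc list, to which C10orf71 is close by function, 43 genes were kept. In the stage fit 5 of the 43 rose, against 4.9% of all kept probe sets, and 4 fell, against 5.65%. Those that rose were MYOM1, MYOM2, LDB3, MYOZ2 and XIRP1, and those that fell were MYL4, MYBPC1, TPM1 and FHL1. At least 2-fold lower after ligation on both sides was 1 of the 43, against 0.988% of all kept probe sets: LMOD2, a leiomodin that lengthens actin filaments, at 11.22 ligated against 12.39 normal on the left and 10.51 ligated against 11.97 normal on the right. MYBPC1, a myosin binding protein, was at least 2-fold higher on both sides, by 1.03 and 1.58. In the list of calcium handling and ion channels 2 of 34 were lower on both sides by this rule, against the same 0.988%: S100A1, a calcium sensor of muscle, with differences of -1.47 and -1.42, and the phosphatase inhibitor PPP1R1A, at 6.04 ligated against 7.54 normal on the left and 5.80 ligated against 6.91 normal on the right. The median ligated minus normal differences of both lists lay between -0.10 and -0.01. The summed cardiomyocyte markers lay at 17.28 and 17.29 in the ligated left and right pools, against 17.38 and 17.36 in the normal E8 left and right pools, and single markers differed by -0.52 to 0.48.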

How the data were processed

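Expression was measured in 12 pools on 24 one-colour arrays. The authors' deposited values are log2 intensities between 0.14 and 16.09 for 38535 probe sets; the scale was read from that range. The submitters' processing notes name GCRMA and MAS5 without versions, and do not say here which gave these values. Total RNA was made into biotin-labelled cRNA, per the labels' protocols. The values were used as deposited, without the 96 control probe sets. The 2 arrays of a pool were averaged. Of the other probe sets, 27168 had 1 gene in the platform annotation, updated through Entrez IDs to RefSeq symbols for 26853, 177 had several and 11094 had none, and only the first kind was named. No sequences were used.

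Pools were compared by a 2-fold difference of means with arrays that did not overlap. Ligation and side by ligation were fitted with limma 3.58.1 in R 4.3.3 over 12 pools (4 and 3 residual degrees of freedom, two-sided, Benjamini-Hochberg over 20335 probe sets), and the stage trend over 5 stage means. These p-values measure how far left-right differences, or stage means, scatter, not variation between pools of a condition. On simulated pools the ligation fit recovered 114 of 200 differences of 1 and 178 of 200 of 2, and side by ligation 0 and 122. The simulated noise came from the spread of the fit itself and held no variation between pools of a condition. These rates may therefore overstate what the design can recover. Array numbers did not pair the samples: deviations correlated between -0.083 and 0.077 over 66 pairs of pools. The members, lists and tests were chosen with earlier results of these data known. All 6 members are named, with their 3 nearest neighbours outside each limit; of the list genes that passed a test or the 2-fold rule, only examples are named, chosen after values were seen. The likeness measure, the neighbours in range and level, and the look at other probe sets were chosen after values were seen.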

Additional observations from a re-analysis of the deposited data

Results flagged for a closer look

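At 3 of the 6 probe sets the ligated arrays lay wholly above the normal E8 arrays in one ventricle and wholly below them in the other. MEOX2 was 0.46 higher in the left and 0.19 lower in the right ligated ventricle, and the term for side by ligation was 0.76 (limma, adjusted p = 1, unadjusted p = 0.027). AQP1 ran the other way, 0.22 lower on the left and 0.24 higher on the right, with a term of -0.59 (adjusted p = 1, unadjusted p = 0.052). The unannotated probe set, Gga.14031.1.S1_at, was 0.26 higher in the left and 0.69 lower in the right, with a term of 0.85 (adjusted p = 1, unadjusted p = 0.24). None of these terms passed the threshold, and each arm held 1 pool. The share of all kept probe sets with such opposite differences was not computed, so nothing is read from the count of 3.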

How the results depend on the processing

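The number of probe sets found by the rule was 6, and 4 to 9 under the other ways of scaling, of taking E6 and of setting the range and level, but 10 with values under 4 set to 4, 26 with a rise of at least 0.8 and 2 with a rise of at least 1.5. Of 13 such settings MEOX2 and AQP1 were kept in 12 each and GRIA3 and C10orf71 in 9 each. At least 2-fold differences after ligation numbered 2 on the left and 2 on the right. At 3-fold they numbered 0 and 1, and among the members under tightened thresholds, which keep MEOX2 and AQP1 alone, 0 and 0. Leaving out 1 array of each pool gave 2 on the left and 2 to 3 on the right. Between the ligated left and right ventricles the count was 1, with 3 at 1.5-fold, 0 at 3-fold, 0 under tightened thresholds, and 0 to 1 without 1 array of each pool. The array number as a replicate block gave the same counts, 2, 2 and 1. The median ligated minus normal difference was -0.04 on the left. It was -0.241 to 0.043 without 1 array of each pool, 0.12 under tightened thresholds and -0.75 against the mean of normal E8 and E10. On the right it was -0.57. It was -1.09 to -0.23 without 1 array, 0.024 under tightened thresholds, -0.44 with the floor at 4 and -1.30 against the mean of normal E8 and E10. The cause of these shifts was not tested, except that tightening left 2 members. The limma counts were 0 for both terms under every alternative run. With 1 pool per condition and 2 arrays per pool, no value holds the variation between embryos, and dim values such as the early GRIA3 and ABCB1 levels limit fold changes.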
